A study of Mus musculus with 12 samples.

Results

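Markers of dentate gyrus granule cells were followed in the prefrontal cortex and hippocampus of female mice aged 38 to 40 weeks. The 8 genes are Prox1, St18, C1ql2, Trpc6, Calb1, Dsp, Lct and Tdo2, out of 18193 genes that the array names singly. Every probe set whose annotation gives one of these symbols as its only gene was taken, which gave 18 probe sets of 34945 (4 for Calb1, 3 each for Prox1, Dsp and Tdo2, 2 for St18, and 1 each for C1ql2, Trpc6 and Lct). The genes were chosen by name as granule cell markers, with their hippocampus and cortex signals on these same arrays in view, so their hippocampus and cortex levels are described without a test, and only the genotype comparison is tested.

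The 4 groups were APPsα-DM hippocampus, APLP2-KO hippocampus, APPsα-DM cortex and APLP2-KO cortex, with 3 arrays each from 3 mice of each genotype according to the design. APLP2-KO mice (APLP2-/-) lack APLP2, which belongs to the gene family of App, and have no App change named in their labels. APPsα-DM mice (APPα/αAPLP2-/-) lack APLP2 as well, and both of their App alleles are replaced by one that, as generally described, yields only the secreted ectodomain APPsα. Both lines were on a C57BL/6 background after 6 generations of back-crossing. All groups therefore share the loss of APLP2, no wild-type array was used here, and the deletion and knock-in act in the whole body.

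Granule cells are the principal neurons of the dentate gyrus, the entry station of the hippocampal circuit. They receive input from the entorhinal cortex and send mossy fibres to CA3 pyramidal cells and hilar mossy cells, and new ones are added throughout adult life in mice. The homeodomain protein Prox1 is needed for granule cell identity and maturation in mice. RNA came from whole hippocampus pieces, so the arrays cannot show which hippocampal field a signal comes from, and fewer granule cells and less RNA per granule cell cannot be told apart.

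Each value is a log2 signal after RMA (background correction, quantile normalisation and summary over the probes of a probe set), where 1 unit is a doubling of signal. Array medians lay between 5.86 and 5.91 and lower quartiles between 4.19 and 4.27, so a value under that range is among the dimmest of the array. The level of a probe set depends on its probes, so levels are compared only within a probe set. The App probe set 1420621_a_at read 7.70 to 8.20 in the APPsα-DM arrays and 12.49 to 12.77 in the APLP2-KO arrays. The brighter App probe set 1427442_a_at read 11.46 to 11.83 in APPsα-DM and 13.38 to 13.50 in APLP2-KO. Both matched all genotype labels. The choroid plexus transcript Ttr varied among the pieces and read 11.83 to 14.36 in APPsα-DM hippocampus, 10.63 to 14.21 in APLP2-KO hippocampus, 8.20 to 14.18 in APPsα-DM cortex and 8.69 to 14.03 in APLP2-KO cortex. APPsα-DM cortex 2 and APLP2-KO cortex 3 held the 2 highest cortex values.

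Taking the brightest probe set of each gene, 7 of the 8 genes lay higher in hippocampus than in cortex in both genotypes, and the exception was Calb1. The median difference between hippocampus and cortex was 2.30 ± 0.11 log2 units in APPsα-DM and 2.54 ± 0.09 in APLP2-KO (SD over the 3 hippocampus arrays). Over all 45037 probe sets the median difference was -0.01 in APPsα-DM and 0.01 in APLP2-KO. In 14 of the 18 member probe sets all hippocampus arrays lay above all cortex arrays, as did 6.57% of all probe sets. Within a genotype, the hippocampus arrays lay above the cortex arrays in 14 of 18 member probe sets and 13.2% of all in APPsα-DM, and in 16 of 18 and 14.8% of all in APLP2-KO. A difference above 1 was found in 11 of 18 member probe sets and 0.773% of all, and one above 4 in 4 of 18 and 0.0111% of all. Dsp, C1ql2 and Lct held 4 of the 5 probe sets with the largest hippocampus excess on the array, and that of Npy2r was the other. The genes were chosen with this pattern in view, so these counts describe the choice.

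**Figure D1:**
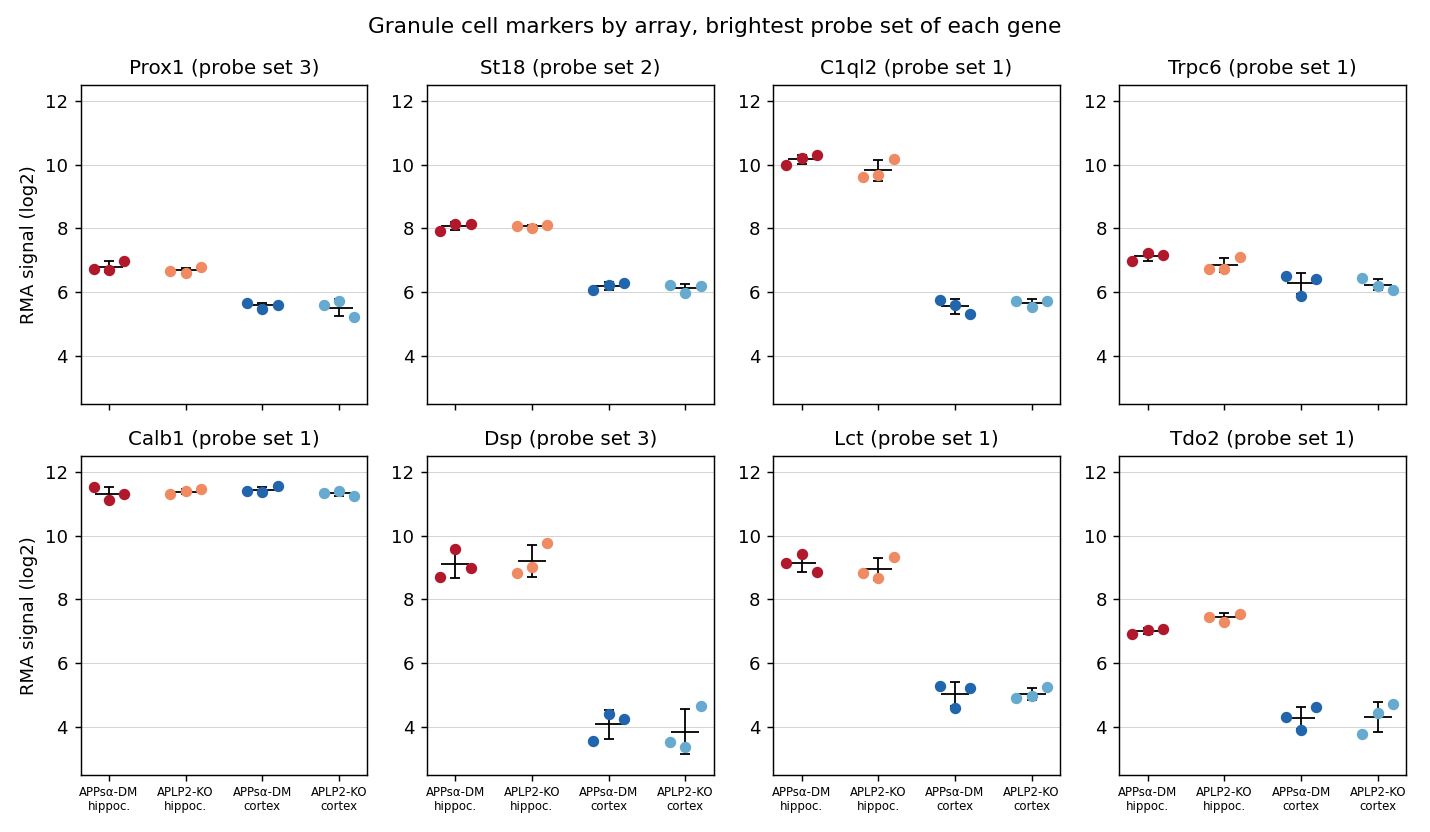
RMA signal (log2) of the brightest probe set of each gene on every array, with group means and SD (3 arrays per group) as black bars. In 7 genes the hippocampus arrays lie above the cortex arrays, by the widest gap for Dsp, while the Calb1 groups all lie between 11.13 and 11.54.

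The 250 bases before the annotated start are shown for the 3 genes with the widest tissue difference and for the transcription factor Prox1 (RefSeq, GRCm38.p6; 5′ to 3′ on the strand of the gene). Capitals mark matches to the E-box CANNTG, the core bound by basic helix-loop-helix proteins such as the granule cell factor NeuroD1. The windows are chr1:120340332-120340581 on the plus strand for C1ql2, chr13:38151044-38151293 on the plus strand for Dsp, chr1:128328319-128328568 on the minus strand for Lct and chr1:190170828-190171077 on the minus strand for Prox1.
C1ql2: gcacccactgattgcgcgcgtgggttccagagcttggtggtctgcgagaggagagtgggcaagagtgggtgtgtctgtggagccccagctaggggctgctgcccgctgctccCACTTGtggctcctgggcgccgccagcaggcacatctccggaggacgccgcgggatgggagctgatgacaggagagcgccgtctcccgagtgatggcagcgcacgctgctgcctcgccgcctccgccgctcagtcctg
Dsp: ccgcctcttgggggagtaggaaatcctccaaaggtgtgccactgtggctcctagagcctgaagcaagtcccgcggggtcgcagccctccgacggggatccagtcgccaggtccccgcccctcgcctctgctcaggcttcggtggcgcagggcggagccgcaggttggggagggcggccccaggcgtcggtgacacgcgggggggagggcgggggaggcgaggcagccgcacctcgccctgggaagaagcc
Lct: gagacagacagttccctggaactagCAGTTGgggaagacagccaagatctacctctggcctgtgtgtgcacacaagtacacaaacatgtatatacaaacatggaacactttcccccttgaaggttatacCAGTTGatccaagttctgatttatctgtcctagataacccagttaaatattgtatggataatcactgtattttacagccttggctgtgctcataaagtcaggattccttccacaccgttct
Prox1: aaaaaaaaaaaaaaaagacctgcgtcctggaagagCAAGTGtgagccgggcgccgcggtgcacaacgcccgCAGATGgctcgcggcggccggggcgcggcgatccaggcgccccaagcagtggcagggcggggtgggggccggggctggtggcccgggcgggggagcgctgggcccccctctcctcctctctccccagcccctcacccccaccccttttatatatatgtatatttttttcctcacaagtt

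Of 7 upstream windows found for the members (2 for Prox1, and 1 each for C1ql2, Dsp, Lct, Tdo2 and Trpc6), 3 held a CANNTG, against 66.2% of 32851 mouse windows of the same length. C1ql2 had 1 match, and Lct and the Prox1 window shown had 2 each. The stricter form CAGATG, searched on both strands and itself a CANNTG, was found in the Prox1 window shown and in none of the other 6, against 14.4% of all windows. The windows also differed in base composition, with 68.8% G or C for C1ql2, 72.4% for Dsp, 42.8% for Lct and 64.8% for the Prox1 window shown, against a median of 52.4%. A match is only these letters in this window and shows no binding.

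On chromosome 1 (GRCm38.p6) lie 4 of the 8 members: St18 at chr1:6487231-6860940, C1ql2 at chr1:120340582-120343174, Lct at chr1:128284756-128328318 and Prox1 at chr1:190118035-190170827. That chromosome holds 5.50% of the 21896 protein-coding genes of the reference. Tdo2 lies at chr3:81958412-81975728, Calb1 at chr4:15881264-15906709, Trpc6 at chr9:8543867-8680752 and Dsp at chr13:38151294-38198577. None is on chromosome 16, which carries App, and Trpc6 is 22.6 Mb from Aplp2, whose deletion all mice share.

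The transcription factors Prox1 and St18 were both higher in hippocampus. Prox1 probe set 1 (1421336_at) read 6.78, 7.22 and 6.85 in APPsα-DM hippocampus, 6.67, 6.69 and 6.90 in APLP2-KO hippocampus, 4.53, 4.32 and 4.89 in APPsα-DM cortex and 4.58, 4.83 and 4.77 in APLP2-KO cortex. The tissues were apart by 1.78 log2 units between the nearest arrays, and the genotypes overlapped in each tissue. The difference between the tissue means was 2.37 in APPsα-DM and 2.02 in APLP2-KO (5.17-fold and 4.07-fold). Probe set 2 gave 2.39 and 2.19 for the same genotypes, and the brightest, probe set 3, gave 1.22 and 1.17.

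St18 encodes a zinc-finger transcription factor of the MYT family. Its probe set 2 (1455123_at) read 7.92, 8.13 and 8.15 in APPsα-DM hippocampus, 8.07, 8.02 and 8.12 in APLP2-KO hippocampus, 6.06, 6.22 and 6.29 in APPsα-DM cortex and 6.22, 5.96 and 6.20 in APLP2-KO cortex. This probe set was among the steadiest of the members, with a range of 0.23 over the hippocampus arrays, while St18 probe set 1 ranged over 0.59. Hippocampus exceeded cortex by 1.88 in APPsα-DM and 1.95 in APLP2-KO, and by 1.47 and 1.19 for St18 probe set 1.

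C1ql2 encodes a secreted C1q-domain protein that mossy fibre terminals release and that takes part in recruiting postsynaptic kainate receptors in CA3 of the mouse. Its probe set (1444687_at) read 10.00, 10.21 and 10.29 in APPsα-DM hippocampus, 9.60, 9.67 and 10.19 in APLP2-KO hippocampus, 5.76, 5.61 and 5.30 in APPsα-DM cortex and 5.73, 5.52 and 5.73 in APLP2-KO cortex. The lowest hippocampus array exceeded the highest cortex array by 3.84. The tissue means differed by 4.61 in APPsα-DM and 4.16 in APLP2-KO (24.4-fold and 17.9-fold). In hippocampus, APLP2-KO 1 and 2 lay below all 3 APPsα-DM arrays and APLP2-KO 3 lay among them.

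Trpc6 and Calb1 concern calcium. Trpc6 encodes a cation channel opened by diacylglycerol, and its probe set (1449431_at) read 6.97, 7.23 and 7.17 in APPsα-DM hippocampus, 6.71, 6.72 and 7.10 in APLP2-KO hippocampus, 6.52, 5.88 and 6.41 in APPsα-DM cortex and 6.43, 6.20 and 6.07 in APLP2-KO cortex. It had the smallest tissue difference of the 7 genes that separated the tissues, 0.85 in APPsα-DM and 0.61 in APLP2-KO, and the nearest arrays of the tissues were 0.20 apart.

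Calb1 encodes calbindin, a calcium buffer that is abundant in granule cells and also made by CA1 pyramidal cells, upper-layer cortical neurons and interneurons. Its brightest probe set 1 (1417504_at) read 11.52, 11.13 and 11.31 in APPsα-DM hippocampus, 11.29, 11.39 and 11.47 in APLP2-KO hippocampus, 11.40, 11.36 and 11.54 in APPsα-DM cortex and 11.33, 11.39 and 11.25 in APLP2-KO cortex. For this probe set the groups overlapped throughout, and the tissue means differed by -0.11 in APPsα-DM and 0.06 in APLP2-KO. Calb1 probe sets 2, 3 and 4 differed between the tissues by 0.18, 0.18 and 0.18 in APPsα-DM and by 0.45, 0.43 and 0.25 in APLP2-KO. In APLP2-KO the hippocampus arrays of probe sets 2 and 3 lay above the cortex arrays (7.14 against 6.91 and 7.56 against 7.29 at the nearest), while in APPsα-DM, and with both genotypes pooled, the tissues overlapped in all 4 Calb1 probe sets.

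Dsp encodes desmoplakin, which ties desmosomes to intermediate filaments in epithelia and heart. Its probe set 3 (1435494_s_at) read 8.71, 9.58 and 9.00 in APPsα-DM hippocampus, 8.84, 9.00 and 9.77 in APLP2-KO hippocampus, 3.56, 4.41 and 4.25 in APPsα-DM cortex and 3.52, 3.37 and 4.66 in APLP2-KO cortex. The tissue means differed by 5.02 in APPsα-DM and 5.36 in APLP2-KO, and Dsp probe set 2 gave 5.24 and 5.30. Probe set 1 gave 1.44 and 1.79, so the probe sets of Dsp disagreed in size but not in direction.

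The Dsp probe sets 2 and 3 also ran in parallel from array to array. In hippocampus both were highest in APLP2-KO 3 (9.15 and 9.77) and APPsα-DM 2 (9.09 and 9.58). Ttr read 14.21 in APLP2-KO hippocampus 3, the highest of its group, and 11.83 in APPsα-DM hippocampus 2, the lowest of its group. In cortex both were highest in the arrays with the highest Ttr, APPsα-DM 2 (4.21 and 4.41, with Ttr at 14.18) and APLP2-KO 3 (4.13 and 4.66, with Ttr at 14.03). The choroid plexus score (mean log2 signal of 9 markers) was also highest there, at 7.68 and 7.18, with lowest values of 4.71 in APPsα-DM cortex and 4.77 in APLP2-KO cortex. Dsp probe set 1 instead read 3.85 in APPsα-DM cortex 2, the lowest of its group, and 4.01 in APLP2-KO cortex 3, the highest of its group. Probe set 3 also read 4.25 in APPsα-DM cortex 3, where Ttr was 9.42. The part of choroid plexus RNA in the cortex signal of Dsp was not tested. The cortex signal of Dsp lay under the lower quartile of the array in 3 of 6 cortex arrays for probe set 3 and in all 6 for probe sets 1 and 2, so no fold is given for it.

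Lct and Tdo2 are enzymes best known outside the brain. Lct encodes lactase, the milk-sugar hydrolase of the intestinal brush border, and its probe set (1439479_at) read 9.15, 9.41 and 8.86 in APPsα-DM hippocampus, 8.82, 8.68 and 9.34 in APLP2-KO hippocampus, 5.27, 4.60 and 5.21 in APPsα-DM cortex and 4.90, 4.97 and 5.26 in APLP2-KO cortex. Its tissue means differed by 4.11 in APPsα-DM and 3.90 in APLP2-KO (17.3-fold and 15.0-fold), with 3.41 between the nearest arrays.

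Tdo2 encodes tryptophan dioxygenase, which opens the kynurenine pathway of tryptophan breakdown in liver. Its probe set 1 (1419093_at) read 6.91, 7.04 and 7.08 in APPsα-DM hippocampus, 7.46, 7.29 and 7.56 in APLP2-KO hippocampus, 4.31, 3.91 and 4.62 in APPsα-DM cortex and 3.78, 4.42 and 4.73 in APLP2-KO cortex. The tissues did not overlap, and within hippocampus every APPsα-DM array lay below every APLP2-KO array. The tissue means differed by 2.73 in APPsα-DM and 3.12 in APLP2-KO. The dimmer Tdo2 probe sets 2 and 3 differed by 0.72 and 0.77 in APPsα-DM and by 1.22 and 0.98 in APLP2-KO. The cortex signal lay under the lower quartile of the array in 2 cortex arrays for probe set 1, 5 for probe set 2 and 6 for probe set 3. No fold is therefore given for Tdo2.

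**Figure D2:**
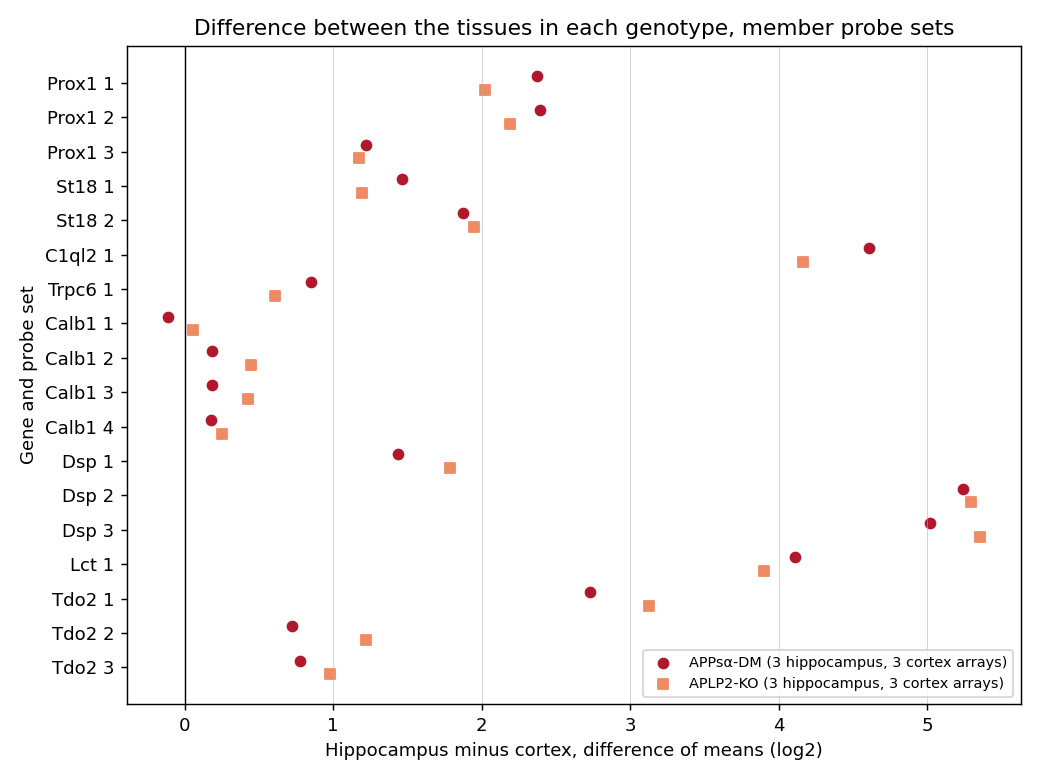
Hippocampus minus cortex (log2 difference of the means of 3 arrays each) for the 18 member probe sets, with circles for APPsα-DM and squares for APLP2-KO. Dsp probe sets 2 and 3, C1ql2 and Lct lie furthest right, the 4 Calb1 probe sets lie near 0, and probe sets of Prox1, Dsp and Tdo2 differ in size.

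Between the genotypes, no member differed past the threshold in either tissue. In hippocampus, 0 of 18 probe sets had an adjusted p under 0.05 (limma over all 45037 probe sets, of which 0.00888% were called), and 3 had an unadjusted p under 0.05, as did 4.11% of all probe sets. The differences of APPsα-DM minus APLP2-KO ran from -0.42 to 0.34 with a median of -0.06, 7 above 0 and 11 below, beside a median of -0.00 over all probe sets. The tally turned to 12 above and 6 below without APLP2-KO hippocampus 3, and to 10 above and 8 below without APPsα-DM hippocampus 1 or 2. Those with an unadjusted p under 0.05 were C1ql2 at 0.34 ± 0.16 (SE), Tdo2 probe set 2 at -0.34 ± 0.13 and Dsp probe set 1 at -0.36 ± 0.15, each with limma's adjusted p = 0.9998.

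Tdo2 was the one member whose hippocampus arrays separated by genotype. Probe set 1 averaged 7.01 ± 0.09 in APPsα-DM hippocampus and 7.44 ± 0.13 in APLP2-KO hippocampus (SD, n = 3 each), a difference of -0.42 ± 0.21 (SE; 95% confidence interval -0.88 to 0.04; limma adjusted p = 0.9998). Probe set 2 read 4.92, 4.99 and 4.72 in APPsα-DM hippocampus and 5.10, 5.28 and 5.26 in APLP2-KO hippocampus, again without overlap, with an interval of -0.62 to -0.05 for its difference. Probe set 3, close to the dimmest signals of the array, overlapped at -0.09 ± 0.13. Without overlap and lower in APPsα-DM hippocampus were 2 of 18 member probe sets, both of Tdo2, and 5.78% of all probe sets, while none of the members and 4.10% of all probe sets were higher without overlap. A two-sided exact permutation test of 3 against 3 arrays cannot give a p below 0.1.

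C1ql2 averaged 10.17 ± 0.15 in APPsα-DM hippocampus and 9.82 ± 0.32 in APLP2-KO hippocampus (SD, n = 3 each), and the interval of the difference ran from 0.01 to 0.68. For Prox1 the differences were 0.20 ± 0.15, 0.22 ± 0.18 and 0.12 ± 0.12 for probe sets 1 to 3, with a widest interval of -0.16 to 0.60. Trpc6 differed by 0.28 ± 0.16, Lct by 0.20 ± 0.21 and St18 by 0.20 ± 0.16 and -0.00 ± 0.09 for its probe sets 1 and 2. The 4 Calb1 probe sets differed by -0.10 to -0.05. Dsp probe sets 2 and 3, at -0.09 ± 0.40 and -0.11 ± 0.36, had the widest intervals, -0.95 to 0.78 and -0.88 to 0.67. These misses do not show that the genotypes are alike.

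In cortex, 0 of 18 probe sets had an adjusted p under 0.05 by limma, beside 0.00888% of all, and 0 had an unadjusted p under 0.05, beside 4.50%. The cortex differences lay between -0.15 and 0.23, and no member separated the genotypes there, while 4.07% of all probe sets did upward and 4.66% downward. The difference between the genotype differences of the tissues (hippocampus minus cortex) was called for 0 of 18 by limma, beside 0.0% of all, with 1 member at an unadjusted p under 0.05 beside 3.79%. That member was Tdo2 probe set 2, at -0.50 ± 0.19 (SE, limma adjusted p = 0.9998), where probe sets 1 and 3 gave -0.39 ± 0.30 and -0.20 ± 0.18. C1ql2 gave 0.45 ± 0.22 (limma adjusted p = 0.9998).

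**Figure D3:**
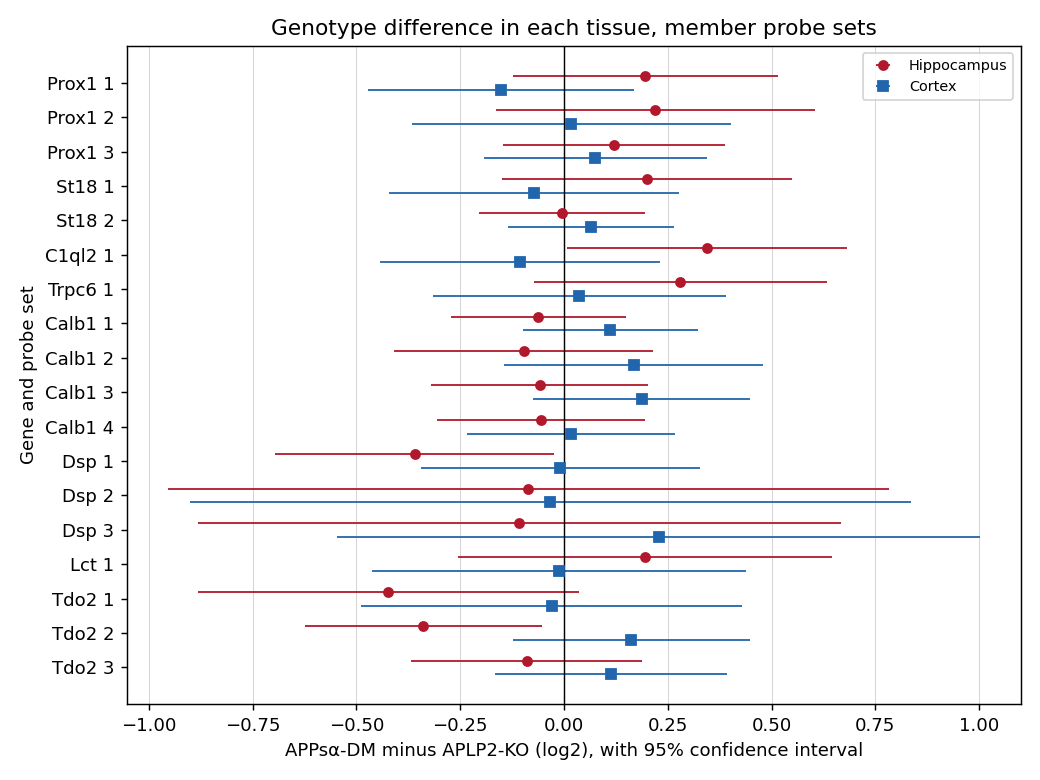
APPsα-DM minus APLP2-KO (log2, limma) with 95% confidence intervals for the 18 member probe sets, circles for hippocampus and squares for cortex. Intervals exclude 0 for C1ql2, Dsp probe set 1 and Tdo2 probe set 2 in hippocampus before adjustment, and for none in cortex.

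Among the hippocampus arrays the members, each by its brightest probe set, shifted partly together. Measured from the mean of the 6 hippocampus arrays, the mean deviation over the 8 genes was -0.08, 0.11 and 0.04 in APPsα-DM 1, 2 and 3 and -0.14, -0.15 and 0.22 in APLP2-KO 1, 2 and 3. In APLP2-KO 3 all 8 genes lay above the mean, by 0.04 to 0.62, and in APLP2-KO 1 and 2 the numbers below it were 7 and 6. The APPsα-DM arrays were mixed, with 3, 5 and 4 of the 8 genes above the mean. These counts have no share over all probe sets beside them. Of the other member probe sets, only St18 probe set 1 lay below the mean in APLP2-KO 3, at -0.13. In APPsα-DM 2, Prox1 probe sets 1 and 2 lay above it (0.37 and 0.34) and the brightest, probe set 3, below it (-0.06). Among the brightest probe sets the spread was largest for Dsp probe set 3, which ranged over 1.06 log2 units, and smallest for St18 probe set 2. The choroid plexus score was 8.72, 5.83 and 8.38 in the same APPsα-DM arrays and 5.48, 6.44 and 7.63 in the APLP2-KO arrays, and its part in these shifts was not tested.

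**Figure D4:**
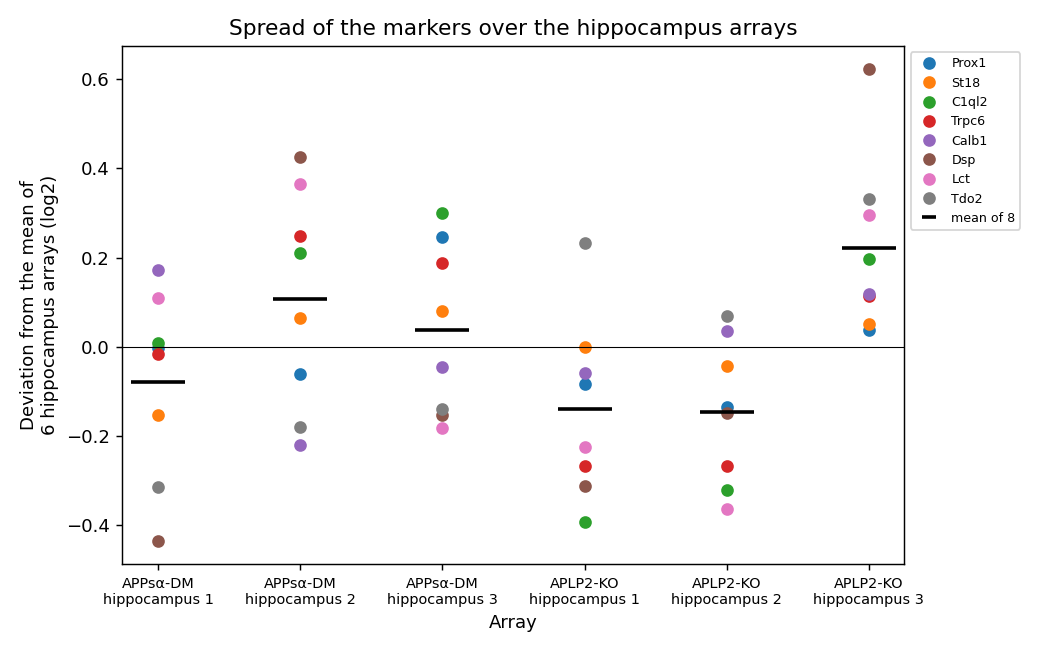
Deviation of each of the 8 genes (brightest probe set, log2) from its mean over the 6 hippocampus arrays, one column per array, with the mean of the 8 as a black bar. APLP2-KO hippocampus 3 has all points above 0, and Dsp reaches from -0.43 in APPsα-DM 1 to 0.62 in APLP2-KO 3.

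A list of 15 other genes known from granule cells was set beside the members. Of these, 7 lay higher in all hippocampus arrays than in all cortex arrays and 0 lower, beside 6.57% and 7.08% of all probe sets, and their median difference was 0.40. The copine gene Cpne7 led with 2.71, ahead of the regulatory factor gene Rfx3 at 1.01 and Glis3 at 0.99. C1ql3, the close relative of C1ql2, differed by 0.39, and the synaptic vesicle gene Synpr by 0.46 with overlap. Pdzd2 (-0.58), Akap7 (-0.23) and Ablim3 (-0.20) were below 0, also with overlap. Between the genotypes in hippocampus 0 of 15 were called by limma and 0 had an unadjusted p under 0.05, beside 0.00888% and 4.11% of all probe sets. The differences were above 0 for 12 and below for 3, with a median of 0.07, and how this tally depends on single arrays was not tested. The smallest p values belonged to Plk5 (0.16 ± 0.12), Glis3 (0.14 ± 0.14), Akap7 (0.07 ± 0.08) and Maml2 (0.07 ± 0.08).

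Of 37 measured relatives of the members (of 41 listed), 7 were higher and 5 lower in all hippocampus arrays. Over all probe sets these shares were 6.57% and 7.08%. The median difference of the relatives was -0.00. Among 12 desmosome genes besides Dsp, the plaque gene Pkp2 stood out with 3.04, from 9.30 to 9.72 in hippocampus against 6.09 to 6.74 in cortex. Dsg2 (0.84), Pkp4 (0.30) and Ppl (0.27) were also higher without overlap, and Jup (-0.41) and Pkp1 (-0.30) lower. The desmosomal cadherin genes Dsg1a, Dsc1, Dsc2 and Dsc3 differed by -0.05 to 0.03. Dsg1a, Dsc1 and Dsc2 lay under the lower quartile on all arrays, at most at 4.09, so their small differences do not show equal expression. Among relatives of C1ql2, Cbln1 (1.08) and C1ql3 were higher and Cbln2 (-1.78) lower, and of the calcium-binding relatives of Calb1, Pvalb (-0.83) was lower. Of the 5 other TRPC channel genes measured, only Trpc4 separated the tissues, at 1.59. Ido1, whose enzyme catalyses the same step as that of Tdo2, was lower in hippocampus, with a difference of -2.75. Kmo, Kynu and Haao, the later enzymes of the pathway, differed by -0.11 to -0.01. Kynu also lay under the lower quartile on all arrays, at most at 3.60. Kmo lay near the lower quartile, at 3.99 to 4.36 in hippocampus and 4.17 to 4.54 in cortex. The small differences of Kynu and Kmo do not show equal expression either. Genes of these lists that are named for their tissue difference were picked after their values were seen. Between the genotypes, 0 of 37 were called in hippocampus by limma, beside 0.00888% of all probe sets. An unadjusted p under 0.05 was found for 4, beside 4.11% of all probe sets. These were Dsg2 at 0.38 ± 0.14, Cbln4 at 0.49 ± 0.19, Pvalb at 0.27 ± 0.11 and Prox2 at -0.21 ± 0.08.

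A list for immature granule neurons and neurogenesis had 11 measured genes (of 12 listed). Of these, Neurod1 (1.41), Neurod6 (1.33) and Sox11 (0.27) were higher in all hippocampus arrays and Dcx (-0.89) and Tac2 (-0.60) lower. Over all probe sets these shares were 6.57% and 7.08%. The other 6 overlapped, among them the proliferation marker Mki67 at a level of 4.09 to 4.30 in hippocampus, near the lower quartile of the array. Neurod6 was bright in both tissues, at 10.82 to 11.18 in hippocampus and 9.49 to 9.87 in cortex. A place in the list does not show that a signal came from immature neurons. Between the genotypes in hippocampus 0 of 11 were called by limma, beside 0.00888% of all probe sets. An unadjusted p under 0.05 was found for 0, beside 4.11% of all probe sets, with Draxin at -0.20 ± 0.10 the nearest.

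Markers of the CA fields, the other principal cells of the same tissue piece, were compared side by side. Of 15, 9 were higher in all hippocampus arrays and 2, Pcp4 (-1.27) and Coch (-2.23), lower, beside 6.57% and 7.08% of all probe sets. Their median difference was 0.63, with the CA1 gene Fibcd1 at 3.24. Their genotype differences in hippocampus had a median of -0.08, 4 above 0 and 11 below. How this tally depends on single arrays was not tested. By limma 0 of 15 were called, beside 0.00888% of all probe sets, and 0 had an unadjusted p under 0.05, beside 4.11%. The 8 representative member probe sets ran from -0.03 to 5.19, and since both lists were chosen, no difference between them was tested.

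**Figure D5:**
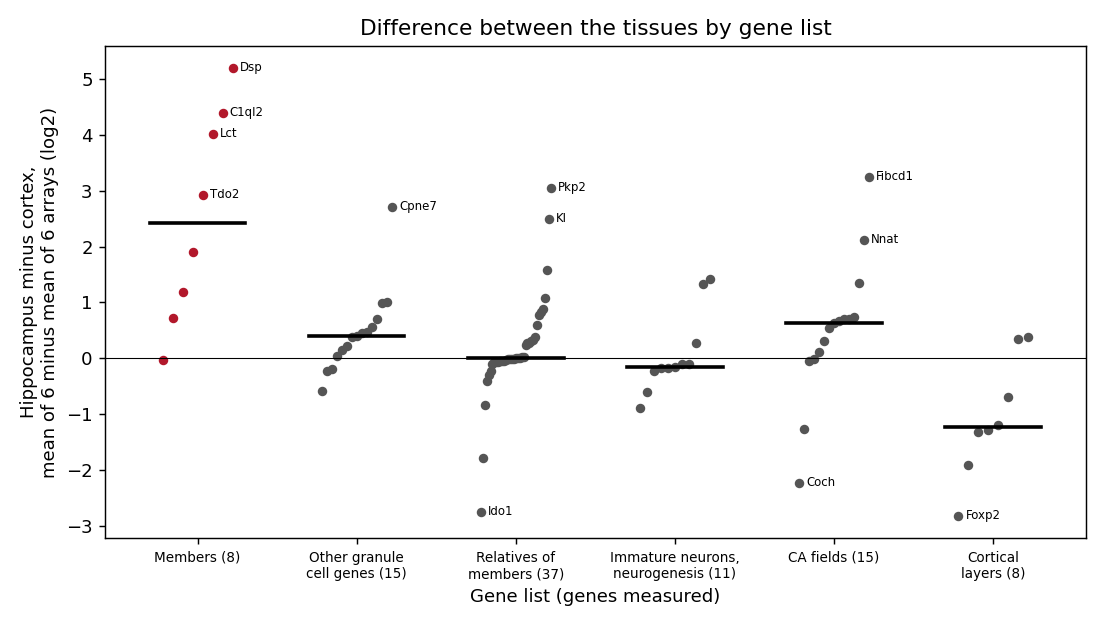
Hippocampus minus cortex (log2, mean of 6 minus mean of 6 arrays) for each gene, by list, with the list median as a black bar; genes beyond 2 in either direction are named. The members reach 5.19, and the highest gene of the other lists shown is Fibcd1 at 3.24.

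The genes whose profile over the 12 arrays lay nearest to the mean profile of the 8 members, by the root mean square difference of centred log2 values, were Slc26a4 (0.13), Pkp2 (0.14, by another probe set than the one given above), Gpr161 (0.16), Pcdh20 (0.16), Cpne7 (0.19) and Tanc1 (0.20). Slc26a4, an anion exchanger gene, averaged 8.92 ± 0.13 in APPsα-DM hippocampus, 8.75 ± 0.05 in APLP2-KO hippocampus, 6.39 ± 0.08 in APPsα-DM cortex and 6.35 ± 0.16 in APLP2-KO cortex (SD, n = 3 each). Gpr161, an orphan receptor gene, differed by 2.55 between the tissues in APPsα-DM and 2.65 in APLP2-KO, the protocadherin gene Pcdh20 by 2.53 and 2.84, and the postsynaptic scaffold gene Tanc1 by 2.37 and 2.21. The likeness rests mainly on the size of the tissue difference, since the measure is small only for genes near the members' mean of it.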

How the data were processed

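RNA from 12 pieces of mouse brain (4 groups of 3) was hybridised to 1-colour Affymetrix arrays. The deposited values are log2 signals that the authors made with RMA and the affy package, per the submitters' processing notes (versions not given in the sources used here). After 64 control probe sets were left out, 45037 entered the test, dim ones included. Platform annotation named 1 gene for 34945 of them, several for 932 and none for 9160. Group means of all 12 arrays were fitted with limma 3.58.1 (R 4.3.3, lmFit and eBayes, checked on simulated data), with Benjamini-Hochberg adjustment over all 45037 and a threshold of 0.05. Intervals are 95% limma intervals, and the small number of arrays limits the precision.

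Members and lists were chosen with earlier results of these data known. Probe sets were numbered by identifier, and the one with the highest mean stood for its gene. Other genes named are the 6 nearest profiles and, from each list, up to 4 with the smallest hippocampal genotype p. In every list, genes named for their tissue difference or level were picked after their values were seen. The lists are other granule cell genes, relatives of the members, immature granule neurons and neurogenesis, CA fields, mossy cells, cortical layers, striatum, choroid plexus, thalamus, smooth muscle and meninges, and interneurons. Alternatives were leaving out each array, a fit within the tissue, trend and robust moderation, a mean of at least 6, repeated quantile normalisation, median centring, replicate blocks, array weights, the choroid score as a covariate, the mean over the probe sets of a gene and, chosen after seeing the data, leaving out the 2 cortex arrays high in Ttr.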

Additional observations from a re-analysis of the deposited data

How the results depend on the processing

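No member was called by limma in any genotype comparison under any alternative tried. This was 0 of 18 probe sets, or 0 of 10 with a mean of at least 6. That setting left out all Tdo2 probe sets and Dsp probe set 1, among others. The number of members at an unadjusted p under 0.05 ranged from 1 to 4 in hippocampus, 0 to 1 in cortex and 0 to 4 for the difference between the tissues, beside 2.89% to 13.2%, 3.76% to 5.40% and 2.56% to 6.80% of all probe sets. The smallest adjusted p by limma was 0.153 in hippocampus, for Tdo2 probe set 2 with array weights. In that setting 13.2% of all probe sets and 4 of 18 members had an unadjusted p under 0.05. Over the alternatives that kept it, Tdo2 probe set 2 lay between -0.44 and -0.26. With single arrays left out, Dsp probe set 1 lay between -0.52 (without APLP2-KO hippocampus 1) and -0.13 (without APLP2-KO hippocampus 3), and C1ql2 between 0.23 and 0.53 without the same arrays. Likewise Prox1 probe sets 1 and 2 lay at 0.061 to 0.28 and 0.11 to 0.35 (lowest without APPsα-DM hippocampus 2), Prox1 probe set 3 at 0.028 to 0.18 (lowest without APPsα-DM hippocampus 3), Lct at 0.061 to 0.39 (without APPsα-DM hippocampus 2 and APLP2-KO hippocampus 3), St18 probe set 1 at 0.078 to 0.34 (without APLP2-KO hippocampus 2 and 1) and Tdo2 probe set 3 at -0.15 to -0.044 (without the same arrays). The median tissue difference over the members was 1.83 in APPsα-DM and 1.79 in APLP2-KO when each gene was averaged over its probe sets, which by construction takes in the dimmer probe sets. It was 2.66 in APLP2-KO with APPsα-DM cortex 2 and APLP2-KO cortex 3 removed for their Ttr, and 2.22 to 2.41 in APPsα-DM and 2.43 to 2.66 in APLP2-KO with single arrays left out.

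Hippocampal genotype differences that changed sign with an array left out were those of Calb1 probe sets 1 to 4 (-0.16 to 0.033, -0.19 to 0.025, -0.20 to 0.028 and -0.16 to 0.058), Dsp probe sets 2 and 3 (-0.34 to 0.16 and -0.35 to 0.18) and St18 probe set 2 (-0.045 to 0.071). St18 probe set 2 was also at 0.0066 with median centring and at 0.053 with array weights, and the cause was not tested. The labels do not say that a number marks a mouse. Over probe sets, deviations of same-numbered hippocampus and cortex arrays correlated at 0.019 to 0.079 in APPsα-DM and 0.11 to 0.16 in APLP2-KO, against -0.14 to 0.036 for arrays of different numbers. All same-numbered pairs were thus above 0, but not all were above 0.1, and APPsα-DM hippocampus 2 correlated better with cortex 3 (0.036) than with cortex 2 (0.019), so pairing by number was neither assumed nor excluded. The deviations were taken from group means, so a higher correlation of some pairs lowers those of others. The ranges for same and different numbers are therefore not independent. With a replicate block, as a fixed number or a random mouse, 0 members were called in each comparison, and Tdo2 probe set 2 was at -0.34 in hippocampus.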

Other observations

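Markers of neighbouring tissue were measured in the same arrays, and those named here were picked after their values were seen. Striatal markers were lower in all hippocampus arrays than in all cortex arrays for 6 of 6, with a median difference of -2.39. So were 6 of 8 cortical layer markers, with a median of -1.23. Over all probe sets 7.08% were lower without overlap and 6.57% higher. Of 5 mossy cell markers, Csf2rb2 (0.24) and Ociad2 (0.25) were higher without overlap and Drd2 (-2.97), which is also in the striatal list, lower. Of 6 thalamus markers, Lhx9 was higher (3.56) and Tnnt1 (-0.99) and Rora (-0.83) were lower. Among 6 smooth muscle and meninges markers Dcn was higher, at 2.34, and among 6 interneuron markers Gad2 (-0.19), Vip (-0.97) and Pvalb (-0.83) were lower while Calb1 overlapped. All 9 choroid plexus markers overlapped between the tissues, and all 9 had a genotype difference above 0 in hippocampus (median 1.15). Among them 0 were called by limma and 0 had an unadjusted p under 0.05, beside 0.00888% and 4.11% of all probe sets. In the other lists of this paragraph 0 genes were called in hippocampus by limma either, and those with an unadjusted p under 0.05 were the striatal genes Drd1 (0.51 ± 0.14, SE) and Penk (0.46 ± 0.19), the smooth muscle gene Myh11 (0.41 ± 0.14) and the interneuron gene Pvalb (0.27 ± 0.11), all higher in APPsα-DM, each with an adjusted p = 0.9998.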
